A study of Rattus norvegicus with 18 samples.

Results

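Gene expression of rat liver sinusoidal endothelial cells (LSEC) after 42 h in culture was compared with that of the same cell type after 2 h in culture. The comparison took in the 4 arrays titled LSEC_42h and the 4 arrays titled LSEC_2h, 8 of the 18 arrays in the series, and every gene row measured on them. In both groups the cells had been released from rat liver by enzymatic digestion, enriched on a density gradient, sorted with magnetic beads (MACS) and plated on dishes coated with collagen, so that only the time in culture was labelled as different. A further group of 5 arrays, LSEC_0h, held RNA of cells sorted in the same way and never plated. Its levels are given below as a description of the starting point, and no test was made on them. The remaining 5 arrays came from fresh lung microvascular endothelial cells (LMEC_0h) and were not used except where all 18 arrays entered a model. The labels give no strain, sex, age, culture medium, animal or pooling, so the tests below weigh each difference against the spread between arrays of a group, and that spread may be technical.

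LSEC line the blood capillaries of the liver. They are perforated by open pores called fenestrae, lack an organised basement membrane, and take up macromolecules and immune complexes from the blood through scavenger receptors and endocytosis. They also secrete signals such as Bmp2 and Wnt2, which act on neighbouring hepatocytes, and they are known to lose fenestrae and much of their specialised gene expression on plastic or collagen. Isolation itself is a mechanical and enzymatic stress. Immediate early genes, which are transcribed within minutes of a stimulus, and inflammatory genes driven by NF-kB and interferons are known to respond to it.

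The values are log2 expression on Affymetrix arrays, so a difference of 1 is a 2-fold change. The median of all values on these arrays was 7.16, and 24 bacterial control probe sets to which no RNA had been added in the LSEC_0h arrays read between 5.48 and 6.26. A gene whose lower group mean lay in that range was not above background there, and its fold is given as a minimum. The highest value of an array lay between 13.54 and 13.68, so the folds of genes with a group mean above 13, here Cxcl10, Egr1, Fabp4, Fcgr2b and Rps6, may be understated. The same control RNAs had been added to the cultured samples, where they averaged 7.62 to 8.37, so fresh and cultured arrays also differ in labelling. Replicates correlated over all genes with r between 0.97 and 0.99 at 42 h and between 0.95 and 0.99 at 2 h. The 2 h arrays had the narrower distribution, with an interquartile range of 1.43 to 1.58, against 1.86 to 1.99 at 42 h. Their lower quartile was 6.51 to 6.57, against 6.33 to 6.39 at 42 h. The control level, taken from fresh arrays, therefore does not mark the same place in the 2 distributions, which limits counts of genes at that level. For Actb the control probe set at the 3′ end exceeded the one at the 5′ end, a gap that widens with RNA degradation or incomplete labelling. This gap was 1.85 ± 0.04 at 42 h and 1.65 ± 0.03 at 2 h (SD, n = 4 each), a difference of 0.20 (two-sided exact permutation p = 0.0286, the smallest that 4 against 4 allows, and 0.0572 after adjustment over 2 tests). For Gapdh the same gap differed by 0.0023 (exact permutation p = 0.971). On the LSEC_0h arrays the Actb gap was 0.91 to 1.28, below both culture times, and the Gapdh gap was 0.29 to 0.84. The Actb gap therefore also separates fresh from cultured arrays. The part of these technical differences in the results below was not tested.

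Most genes differed between 42 h and 2 h. Of 11018 genes tested with limma, 7871 (71.4%) passed at a Benjamini-Hochberg adjusted p under 0.05. At 42 h 3506 were higher (31.8%) and 4365 were lower (39.6%). The counts of each list below are to be read beside these shares of all genes. The calls of at least 2-fold were 970 rises (8.8%) and 601 falls (5.45%), and the 2 groups of arrays did not overlap in 7097 genes (64.4%). The split between rises and falls depended on the scaling. Rises made up 44.5% of the calls on the deposited values, 53.3% of 6010 calls after quantile normalization, 38.8% of 8254 calls after centring each array on its median, and 66.5% of 4362 calls among 5945 brighter genes, those exceeding the median of an array on 4 or more of the arrays. The median difference of all genes was -0.08, and -0.14 after centring. Among the 2755 genes with the highest mean level the median difference was 0.33, and among the 2755 with the lowest it was -0.18. After quantile normalization these medians were 0.15 and -0.01. The larger differences described below were nearly the same on either scale, and where quantile normalization moved a list's counts by more than a few members both are given.

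**Figure D1:**
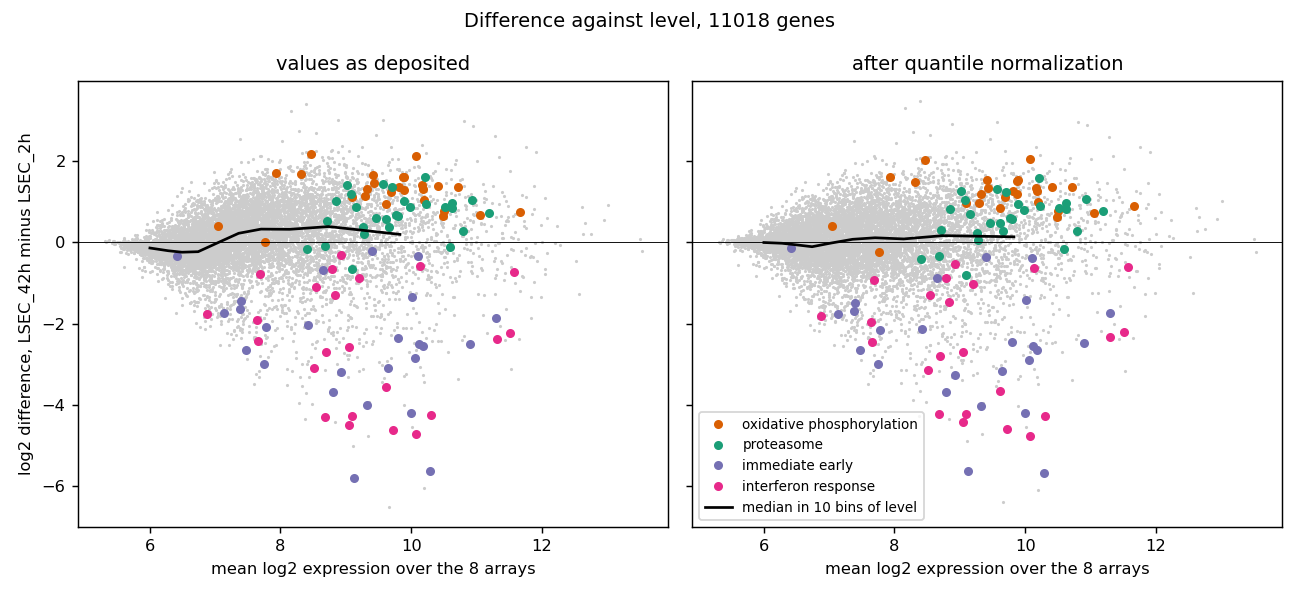
Difference between LSEC_42h and LSEC_2h (vertical axis, log2) against the mean log2 expression over the 8 arrays (horizontal axis) for 11018 genes, with the deposited values on the left and quantile-normalized values on the right; the black line joins the medians in 10 bins of level, and 4 gene lists are coloured. The black line slopes upward with level on the left and lies closer to 0 on the right, while oxidative phosphorylation and proteasome genes lie mainly above 0, and immediate early and interferon response genes below 0, in both panels.

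The 2 largest falls were of chemokines that attract T cells and natural killer cells. Cxcl11, a ligand of the receptor Cxcr3 that is induced by interferon, read 6.41, 6.44, 6.34 and 6.48 at 42 h, against 13.08, 12.74, 12.80 and 13.03 at 2 h. Every 2 h array was near the top of the scale and every 42 h array below the median of all genes, a 90.1-fold fall (log2 SE 0.11, adjusted p = 2.38e-09). Cxcl10, another ligand of that receptor, read 7.27, 7.78, 6.81 and 6.87 at 42 h, against 13.37, 12.998, 13.30 and 13.22 at 2 h, a 65.7-fold fall (log2 SE 0.21, adjusted p = 1.25e-07). Cxcl9, the other ligand of Cxcr3, read 6.47, 6.54, 6.43 and 6.98 at 42 h, against 12.10, 11.33, 11.18 and 11.84 at 2 h, a 32.2-fold fall (log2 SE 0.22, adjusted p = 3.23e-07). Fos and Egr1, described below, fell more than Cxcl9. The groups were far apart for all 3 of these chemokines. In fresh cells the means were 6.86 ± 0.23 for Cxcl11, 9.09 ± 0.88 for Cxcl10 and 8.87 ± 0.96 for Cxcl9 (SD, n = 5 each), which for Cxcl11 is below the median of all genes.

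**Figure D2:**
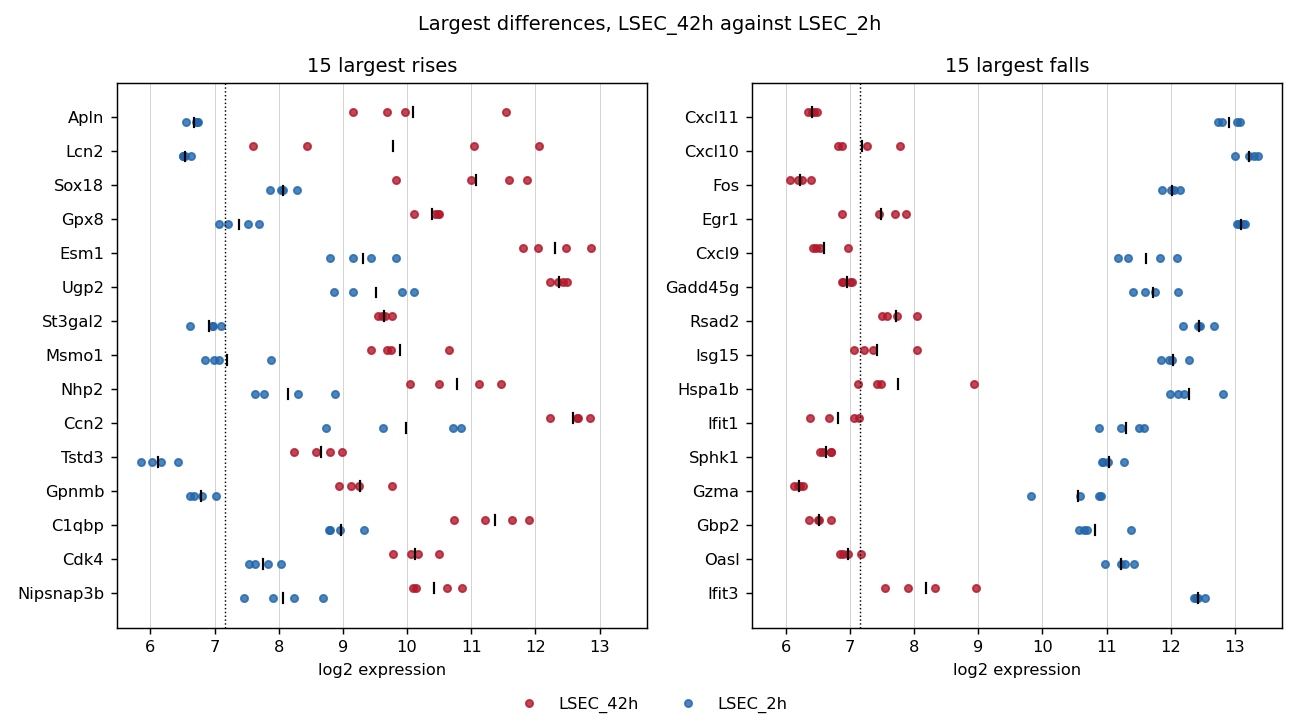
Log2 expression (horizontal axis) in each LSEC_42h array (red, upper row of points of each gene) and each LSEC_2h array (blue, lower row of points) for the 15 largest rises (left) and the 15 largest falls (right) among genes that passed the test without overlap of the arrays; black ticks are group means and the dotted line is the median of all values, 7.16. The 42 h values of most of the falling genes gather near or below the dotted line, and Lcn2 spreads widely at 42 h.

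Promoter sequence is shown for Cxcl11 and Cxcl10, whose falls were the largest, with 250 bases before and 50 bases after the annotated start, from RefSeq on the build GRCr8. The Cxcl11 window lies at chr14:15973478-15973777 on the + strand and the Cxcl10 window at chr14:15988816-15989115 on the + strand, so the genes lie close together on chromosome 14. Capitals mark matches on either strand to a kappaB motif, GGG and CC with any 5 bases between them, the kind of site that NF-kB binds. With positions counted from the annotated start, Cxcl11 had 1 match, at -74, and Cxcl10 had 3, the outermost at -187 and -127, some of which overlap.
Cxcl11: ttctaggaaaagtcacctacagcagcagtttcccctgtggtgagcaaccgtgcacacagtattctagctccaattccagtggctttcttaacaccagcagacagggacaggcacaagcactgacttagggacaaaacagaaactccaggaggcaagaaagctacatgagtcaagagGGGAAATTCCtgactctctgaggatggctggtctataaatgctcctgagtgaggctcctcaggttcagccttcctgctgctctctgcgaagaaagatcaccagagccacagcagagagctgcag
Cxcl10: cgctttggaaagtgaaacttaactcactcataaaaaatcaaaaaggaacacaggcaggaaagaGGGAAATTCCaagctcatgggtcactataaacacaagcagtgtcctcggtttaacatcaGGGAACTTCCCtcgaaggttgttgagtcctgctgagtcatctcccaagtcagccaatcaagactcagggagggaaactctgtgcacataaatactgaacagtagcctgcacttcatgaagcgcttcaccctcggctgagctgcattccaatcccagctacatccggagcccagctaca
This loose motif was common. It was found in 17 of the 23 chemokine and cytokine genes with a window (73.9%), in 15 of the 17 NF-kB genes with a window (88.2%), in 48.5% of all 27457 windows in the table and in 64.1% of the windows of the 9060 tested genes that had one. A match describes these letters and is not a binding site.

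Of 32 chemokines and cytokines measured, 23 fell, 16 of them at least 2-fold, and 2 rose, with a median difference of -0.83 against -0.08 for all genes. Ccl5, a chemokine for T cells that lymphocytes themselves make in abundance, read 6.40, 6.16, 6.34 and 6.30 at 42 h, against 10.64, 10.38, 10.55 and 9.45 at 2 h, a 15.5-fold fall (log2 SE 0.23, adjusted p = 1.73e-06). The groups did not overlap, and the 42 h values lay close to the control level. The 2 genes that rose were Il33 and Ccl2. Il33, an alarmin stored in endothelial nuclei, read 9.35, 9.88, 10.10 and 9.44 at 42 h, against 7.53, 7.70, 7.74 and 7.99 at 2 h, a 3.86-fold rise (log2 SE 0.18, adjusted p = 1.74e-05), with 7.28 ± 0.47 in fresh cells (SD, n = 5). Ccl2, which attracts monocytes, read 11.83, 12.01, 11.87 and 12.10 at 42 h, against 11.03, 10.52, 11.56 and 10.62 at 2 h and was high in every array, with 42 h above 2 h in all of them (2.02-fold, adjusted p = 0.00215). With all 18 arrays in the model Ccl2 did not pass (adjusted p = 0.055).

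Lymphocyte markers moved in the same direction. Of 20 markers of T, NK and B cells all 20 fell, 10 of them at least 2-fold, and 14 fell after quantile normalization. Their mean level was 6.25 to 6.29 on the 42 h arrays and 7.34 to 7.82 on the 2 h arrays, and 9 of the 20 were at control level at 42 h, against 2 at 2 h. Gzma, a granzyme of cytotoxic lymphocytes, read 6.23, 6.19, 6.12 and 6.26 at 42 h, against 10.89, 10.59, 10.92 and 9.83 at 2 h, at least a 20.4-fold fall (log2 SE 0.22, adjusted p = 7.04e-07). Its fresh level was 6.59 ± 0.28 (SD, n = 5). Prf1, the pore-forming perforin of the same cells, fell 6.9-fold and Cd7, a T and NK cell surface protein, 7.09-fold. Gzma, Prf1, Cd7 and Ccl5 were all far lower in fresh cells than at 2 h, with fresh means between 6.58 and 7.06. In bulk samples like these, fewer cells of a type and less RNA per cell cannot be told apart. The part of lymphocyte RNA in the fall of the chemokines was not tested.

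Most NF-kB target genes other than chemokines also fell. Of 19 measured, 15 fell and 1 rose, with a median difference of -0.78. Vcam1, the adhesion molecule by which activated endothelium captures lymphocytes and monocytes, read 7.53, 7.95, 8.19 and 7.90 at 42 h, against 12.29, 11.74, 11.72 and 11.80 at 2 h, a 16-fold fall (log2 SE 0.18, adjusted p = 3.7e-07). Icam1, the ligand of leukocyte integrins, read 9.46, 8.69, 8.75 and 9.23 at 42 h, against 12.65, 12.42, 12.44 and 12.10 at 2 h, a 10.3-fold fall (log2 SE 0.19, adjusted p = 1.46e-06). Neither gene overlapped between the groups. Fresh means were 9.19 ± 0.24 for Vcam1 and 9.58 ± 0.20 for Icam1 (SD, n = 5 each), so that on this scale the 2 h arrays stood above both the fresh and the 42 h arrays. Irf1, a transcription factor induced by interferon gamma, fell 8.33-fold and Bcl2a1, a survival factor of the Bcl2 family, 5.06-fold. Tnip1, a feedback inhibitor of NF-kB, rose 1.38-fold. Sod2 was among the members that did not pass, with a mean of 12.24 at 42 h and 12.30 at 2 h (adjusted p = 0.695). Its fresh mean was 8.93, so at 42 h it stayed well above the fresh level.

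Interferon-stimulated genes formed another block of falls. Of 23 measured, 21 fell, 17 of them at least 2-fold, and none rose. Their median difference was -2.38. Rsad2, the antiviral protein viperin, read 8.04, 7.73, 7.58 and 7.51 at 42 h, against 12.43, 12.20, 12.45 and 12.67 at 2 h, a 26.4-fold fall (log2 SE 0.15, adjusted p = 7.88e-08). Isg15, a ubiquitin-like modifier, read 7.37, 8.05, 7.06 and 7.22 at 42 h, against 12.03, 11.84, 11.97 and 12.28 at 2 h, a 24.4-fold fall (log2 SE 0.21, adjusted p = 4.15e-07). Both groups kept to a narrow range, and the 42 h arrays lay more than 3 log2 units below the 2 h arrays for each of these genes. Ifit1 and Ifit3, antiviral proteins of the IFIT family, fell 22.4-fold and 18.9-fold, and Oasl, a sensor protein of the oligoadenylate synthetase family, fell 19.1-fold. Gbp2, a GTPase induced by interferon gamma, read 6.37, 6.52, 6.70 and 6.50 at 42 h, against 10.58, 10.64, 10.69 and 11.38 at 2 h, a 19.7-fold fall (log2 SE 0.18, adjusted p = 3.01e-07). Fresh means lay between the culture times, at 9.95 ± 0.73 for Rsad2, 9.87 ± 0.80 for Isg15 and 8.07 ± 1.05 for Gbp2 (SD, n = 5 each).

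Rsad2 and Gbp2 are shown as examples of promoters with the core of the interferon-stimulated response element, a sequence found in many genes that interferons induce. The Rsad2 window is chr6:48788071-48788370 on the - strand, and the Gbp2 window is chr2:234005477-234005776 on the + strand, both of RefSeq on GRCr8. Capitals mark GAAA and GAAA with any 2 bases between them, on either strand, which begin at -147 in Rsad2 and at -31 in Gbp2.
Rsad2: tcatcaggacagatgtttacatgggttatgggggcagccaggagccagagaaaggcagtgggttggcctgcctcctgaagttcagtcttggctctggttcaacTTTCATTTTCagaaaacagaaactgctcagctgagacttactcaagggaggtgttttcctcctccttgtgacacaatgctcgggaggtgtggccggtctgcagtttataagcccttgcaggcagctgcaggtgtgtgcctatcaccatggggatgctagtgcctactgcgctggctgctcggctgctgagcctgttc
Gbp2: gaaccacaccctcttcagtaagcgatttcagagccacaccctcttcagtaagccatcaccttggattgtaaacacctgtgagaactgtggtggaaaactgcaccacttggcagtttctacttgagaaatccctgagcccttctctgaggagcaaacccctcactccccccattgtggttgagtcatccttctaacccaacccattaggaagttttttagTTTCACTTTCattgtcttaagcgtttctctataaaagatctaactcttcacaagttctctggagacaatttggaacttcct
Of the 18 interferon response genes with a window, 13 held this core (72.2%). It was present in 3.77% of all windows and in 2.84% of those of the tested genes.

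Antigen presentation genes fell with them. Of 16 measured, 12 fell, 6 of them at least 2-fold, and none rose. The members with the largest falls were Tap1, the peptide transporter that loads MHC class I, and the class II genes RT1-Da, RT1-Ba and Cd74, the class II invariant chain. Cd74 read 7.08, 6.95, 7.21 and 6.71 at 42 h, against 9.24, 9.66, 9.79 and 8.93 at 2 h, a 5.35-fold fall (log2 SE 0.19, adjusted p = 7.29e-06). RT1-Da read 7.79, 7.54, 7.83 and 7.31 at 42 h, against 10.25, 10.47, 10.69 and 9.90 at 2 h, a 6.54-fold fall (log2 SE 0.18, adjusted p = 3.53e-06). All 42 h arrays lay below all 2 h arrays for both genes, and fresh means were 10.28 ± 1.26 for Cd74 and 10.02 ± 1.39 for RT1-Da (SD, n = 5 each). RT1-Ba fell 4.6-fold. Tap1 fell 5.92-fold, with 42 h values within 7.75 to 7.79. Class II genes are also carried by macrophages and B cells. Of 11 markers of macrophages and Kupffer cells, 10 fell and none rose (6 fell after quantile normalization), with a mean level of 6.53 to 6.90 on the 42 h arrays and 7.10 to 7.65 on the 2 h arrays, and the part of these cells in the class II values was not tested.

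Immediate early genes were high at 2 h and low at 42 h. Of 25 measured, 23 fell, 21 of them at least 2-fold, none rose, and the median difference was -2.49, the lowest of the 39 lists. The count of 23 falls was the same after quantile normalization and without any single array. Fos, a subunit of the transcription factor AP-1, read 6.40, 6.26, 6.19 and 6.06 at 42 h, against 11.999, 12.05, 12.15 and 11.86 at 2 h, a fall of at least 55.1-fold (log2 SE 0.11, adjusted p = 3.25e-09). Egr1, a zinc finger factor induced by growth factors and shear, read 7.88, 7.70, 6.88 and 7.45 at 42 h, against 13.15, 13.07, 13.12 and 13.03 at 2 h, a 48.9-fold fall (log2 SE 0.20, adjusted p = 1.25e-07). Both genes stayed within a narrow band on the 2 h arrays and reached the lower part of the scale at 42 h. Fresh cells already carried them, at 11.78 ± 0.12 for Fos and 11.32 ± 0.32 for Egr1 (SD, n = 5 each). Over the whole list the mean level was 8.85 to 9.07 on the fresh arrays, 10.23 to 10.36 at 2 h and 7.66 to 8.04 at 42 h. Zfp36, which shortens the life of cytokine mRNAs, fell 18.2-fold, and Atf3, a stress-induced repressor, fell 15.8-fold. Gadd45g, a growth arrest and DNA damage gene outside the list, read 7.04, 6.90, 6.87 and 7.005 at 42 h, against 12.11, 11.61, 11.76 and 11.41 at 2 h and fell 27.3-fold. The 2 members that did not pass were Myc, with a difference of -0.34, and Gadd45a, with -0.21.

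Egr1 is shown because its promoter is known for serum response elements, whose CArG boxes bind the factor SRF. The window is chr18:26736828-26737127 on the + strand (RefSeq, GRCr8). Capitals mark CC and GG with any 6 bases between them, on either strand, of which there were 5 matches that begin between -189 and -17.
Egr1: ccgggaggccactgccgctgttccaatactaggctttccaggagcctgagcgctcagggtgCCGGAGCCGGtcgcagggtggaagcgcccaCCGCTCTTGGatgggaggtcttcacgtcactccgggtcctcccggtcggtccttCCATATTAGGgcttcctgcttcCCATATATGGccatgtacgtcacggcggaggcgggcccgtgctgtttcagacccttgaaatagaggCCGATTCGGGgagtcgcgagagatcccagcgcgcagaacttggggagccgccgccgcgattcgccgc
The pattern is loose, with 16 of 17 immediate early genes (94.1%), 71.9% of all windows and 84.5% of the windows of tested genes holding it. The AP-1 letters TGANTCA were in 0 of 17 windows of immediate early genes and in 7.33% of all windows.

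Stress genes of other kinds moved in both directions. Among 22 heat shock and endoplasmic reticulum chaperones 8 fell and 6 rose, where 39.6% of all genes fell and 31.8% rose. Cytosolic and endoplasmic reticulum members were found in either direction. The falls were led by cytosolic heat shock genes. Hspa1b, the inducible Hsp70, read 8.93, 7.49, 7.42 and 7.13 at 42 h, against 12.11, 12.21, 12.81 and 11.99 at 2 h, a 23.2-fold fall (log2 SE 0.36, adjusted p = 7.87e-06). One 42 h array was more than 1 log2 unit above the other 42 h arrays, and none reached the 2 h range. Fresh cells had 12.48 ± 0.13 (SD, n = 5), close to the 2 h level. Hsph1, a partner of Hsp70, fell 5.58-fold, Hspb1, a small heat shock protein, 3.43-fold and Bag3, a co-chaperone of the same response, 3.25-fold. The members that rose included Creld2, a chaperone of the endoplasmic reticulum, 2.27-fold, and Hspe1, the mitochondrial chaperonin partner, 2.24-fold.

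Targets of NRF2, the factor that answers oxidants, showed 6 falls and 2 rises among 13, where 39.6% of all genes fell and 31.8% rose. Hmox1, heme oxygenase, read 9.40, 8.57, 9.39 and 9.55 at 42 h, against 11.61, 12.15, 11.64 and 12.25 at 2 h, a 6.45-fold fall (log2 SE 0.24, adjusted p = 1.39e-05). The 42 h arrays were all below the 2 h arrays, with one 42 h array lower than the rest. Osgin1, an oxidative stress growth inhibitor, fell 5.17-fold, Gclc, the catalytic subunit of glutathione synthesis, 4.64-fold and Txnrd1, thioredoxin reductase, 4.31-fold. Tkt, transketolase of the pentose phosphate pathway, rose 2.21-fold, and Gsr, glutathione reductase, rose at least 1.32-fold. Fresh means were lower than the 2 h means for each of the 4 genes that fell, at 10.49 ± 0.35 for Hmox1, 7.70 ± 0.22 for Osgin1, 7.17 ± 0.19 for Gclc and 8.19 ± 0.07 for Txnrd1 (SD, n = 5 each).

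Within the amino acid response driven by ATF4, 8 of 25 genes rose, 7 of them at least 2-fold, and 4 fell. All genes together rose in 31.8%, so the list's share of rises of any size, 32.0%, was that of the background. At the 2-fold threshold 7 of the 25 genes rose, against 8.8% of all genes. The rises included enzymes that make or charge amino acids. Gars1, glycyl-tRNA synthetase, read 11.71, 11.72, 11.01 and 10.88 at 42 h, against 8.69, 9.72, 8.86 and 9.29 at 2 h, a 4.57-fold rise (log2 SE 0.27, adjusted p = 0.0001). Asns, asparagine synthetase, read 10.86, 10.14, 8.69 and 8.68 at 42 h, against 6.63, 8.41, 6.81 and 7.85 at 2 h, a 4.51-fold rise (log2 SE 0.55, adjusted p = 0.00616). Psat1, an enzyme of serine synthesis, read 9.43, 9.99, 8.27 and 7.64 at 42 h, against 6.60, 6.82, 6.82 and 6.88 at 2 h, a 4.15-fold rise (log2 SE 0.43, adjusted p = 0.00227). Asns and Psat1 varied by 2 log2 units or more among the 42 h arrays, without overlapping with 2 h, whereas Gars1 varied less. The falls included transcription factors of stress. Cebpb fell 4.57-fold and Ddit3, also called CHOP, 3.69-fold. Atf4 itself fell 1.97-fold (adjusted p = 0.00145), from a mean of 12.37 at 2 h to 11.39 at 42 h. The composite motif TGATGNAA of CEBP and ATF factors was present in 4 of 22 windows of these genes (18.2%) and in 3.82% of all windows.

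Some genes of haemostasis were lower along with Vcam1 and Icam1. Of 14 genes of leukocyte adhesion and Weibel-Palade bodies, the storage granules of endothelium, 8 fell and 3 rose. Thbd, thrombomodulin, the endothelial anticoagulant receptor, read 7.11, 6.81, 7.02 and 6.69 at 42 h, against 9.83, 10.26, 9.36 and 10.14 at 2 h, a 7.93-fold fall (log2 SE 0.19, adjusted p = 2.68e-06). Plat, tissue plasminogen activator, read 6.70, 6.51, 6.43 and 6.80 at 42 h, against 9.08, 8.96, 8.91 and 8.88 at 2 h, a 5.1-fold fall (log2 SE 0.10, adjusted p = 3.23e-07). F3, tissue factor, which starts coagulation, fell at least 2.76-fold, and Vwf, von Willebrand factor, fell 2.93-fold. None of these 4 genes overlapped between the groups. Fresh means were 9.38 ± 0.21 for Thbd, 6.97 ± 0.17 for Plat, 5.76 ± 0.04 for F3 and 6.75 ± 0.18 for Vwf (SD, n = 5 each). Cd63, a granule membrane protein, rose 1.56-fold. Sphk1, the kinase that makes sphingosine-1-phosphate, was among the 15 largest falls and read 6.71, 6.58, 6.54 and 6.70 at 42 h, against 11.28, 10.95, 11.02 and 10.93 at 2 h, a 21.3-fold fall (log2 SE 0.11, adjusted p = 2.23e-08). Its level at 42 h was within 0.1 log2 units of the fresh mean of 6.61 ± 0.05 (SD, n = 5).

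**Figure D3:**
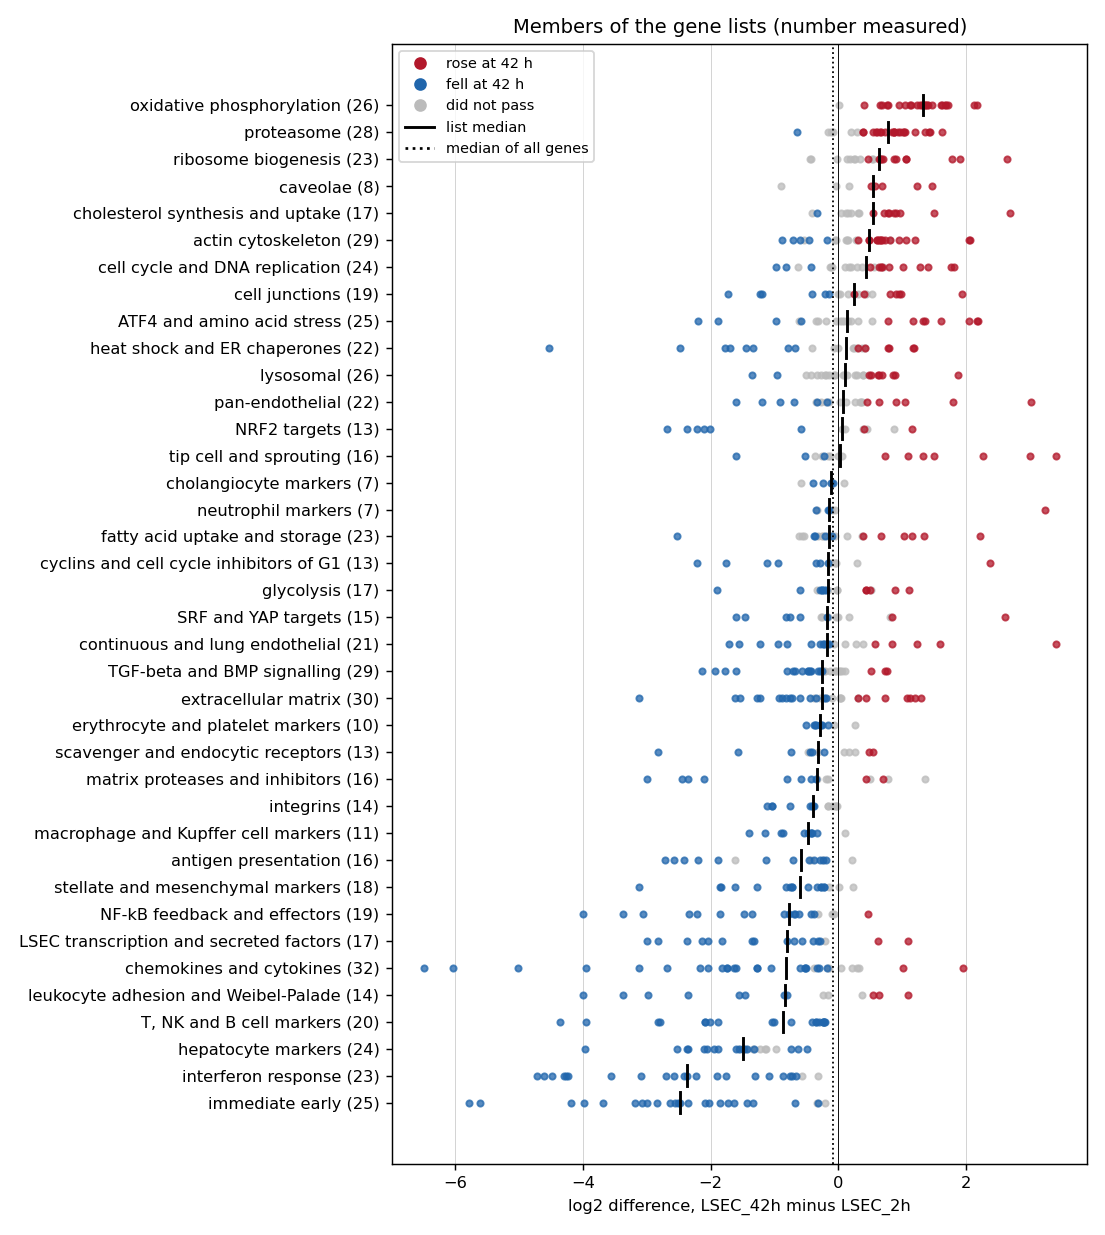
Log2 difference between LSEC_42h and LSEC_2h (horizontal axis) for each measured member of the gene lists with more than 2 measured members, ordered by the list median (black tick), with the number of measured members in brackets; red and blue points passed the limma test as rises and falls, grey points did not pass, and the dotted line is the median of all genes, -0.08. Oxidative phosphorylation has the highest median, 1.32, and immediate early genes the lowest, -2.49.

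The broadest rise was of mitochondrial respiration. Of 26 genes of oxidative phosphorylation 25 rose, 19 of them at least 2-fold, and none fell (25 rose and 1 fell after quantile normalization), with a median difference of 1.32. Without any single array 25 still rose. Ndufs1, a core subunit of complex I, read 9.56, 9.78, 9.57 and 9.29 at 42 h, against 7.32, 7.38, 7.71 and 7.11 at 2 h, a 4.51-fold rise (log2 SE 0.15, adjusted p = 3.57e-06). Atp5f1c, the gamma subunit of ATP synthase, read 11.13, 11.52, 11.07 and 10.82 at 42 h, against 9.32, 8.80, 9.49 and 8.41 at 2 h, a 4.37-fold rise (log2 SE 0.24, adjusted p = 6.28e-05). Every 42 h array was above every 2 h array for both. Ndufa2 and Ndufs3, further subunits of complex I, rose 3.27-fold and 3.21-fold. Fresh means of these 4 genes were 8.71 ± 0.03, 10.46 ± 0.09, 8.20 ± 0.07 and 8.82 ± 0.07 (SD, n = 5 each), above the 2 h means and below the 42 h means. The member that did not pass was Ndufa5, with a difference of 0.01.

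Protein degradation and synthesis machinery rose as well. Of 28 proteasome subunits 22 rose, 8 of them at least 2-fold, and 1 fell (19 and 3 after quantile normalization), with a median difference of 0.78. Psmb5, the subunit with chymotrypsin-like activity, read 10.94, 11.24, 11.02 and 10.91 at 42 h, against 9.40, 9.44, 9.60 and 9.20 at 2 h, a 3.07-fold rise (log2 SE 0.13, adjusted p = 6.54e-06). Psma4 of the core ring, the ATPase Psmc5 and the scaffold subunit Psmd2 rose 2.7-fold, 2.67-fold and 2.56-fold. Psme4, an alternative activator cap, fell 1.56-fold. Most of the 28 subunits rose by between 1.5-fold and 3.07-fold.

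Of 23 genes of ribosome biogenesis 12 rose and none fell (9 and 0 after quantile normalization). Nhp2, a protein of box H/ACA ribonucleoproteins, which guide pseudouridylation, read 11.11, 11.47, 10.50 and 10.04 at 42 h, against 7.63, 8.88, 7.77 and 8.29 at 2 h, a 6.23-fold rise (log2 SE 0.35, adjusted p = 0.00015). Ebna1bp2, which helps assemble the large ribosomal subunit, rose 3.73-fold. Fbl, the methyltransferase fibrillarin, read 11.78, 12.04, 11.30 and 10.85 at 42 h, against 9.09, 10.50, 9.21 and 10.05 at 2 h and rose 3.43-fold, and Noc2l, a nucleolar protein, rose 2.08-fold. The 2 h arrays 5 and 7 were above arrays 4 and 6 for Nhp2, Ebna1bp2 and Fbl. The rises in the list numbered 10 to 15 when single arrays were left out, with 15 without array 5 or without array 7. The 2 cytosolic ribosomal proteins measured, Rpl11 and Rps6, rose 2.61-fold and 1.89-fold.

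Lipid metabolism changed in part. Of 17 genes of cholesterol synthesis and uptake 9 rose and 1 fell. Msmo1, a sterol methyl oxidase, read 9.44, 10.66, 9.68 and 9.76 at 42 h, against 6.84, 6.99, 7.87 and 7.07 at 2 h, a 6.45-fold rise (log2 SE 0.29, adjusted p = 4.36e-05). Fdft1 and Sqle, the squalene synthase and squalene epoxidase that commit precursors to sterols, rose 2.81-fold and 1.95-fold, and Dhcr7, which makes cholesterol in the last step, rose 1.87-fold. The fall was of Stard4, a cholesterol carrier, by 1.27-fold (adjusted p = 0.0387), and it was lost without array 1, 3, 4, 5, 7 or 12 (adjusted p = 0.0633 to 0.105). The sterol response motif TCACNCCAC was in 0 of 13 windows of this list and in 1.13% of all windows. Of 23 genes of fatty acid uptake and storage 6 rose and 5 fell. Fabp4, a fatty acid binding protein of capillary endothelium, read 12.87, 12.79, 13.21 and 13.21 at 42 h, against 9.73, 11.32, 10.41 and 11.75 at 2 h, a 4.64-fold rise (log2 SE 0.38, adjusted p = 0.000683), and its fresh mean was 7.65 ± 0.33 (SD, n = 5). Acly, which makes cytosolic acetyl-CoA, rose 2.53-fold and Scd2, a fatty acid desaturase, 2.22-fold, while Acsl5, an acyl-CoA synthetase, fell 1.3-fold, which did not pass without array 3 (adjusted p = 0.0542). Glycolytic genes were divided, with 5 rises and 7 falls among 17 (5 and 4 after quantile normalization). The shares of all genes were 31.8% rises and 39.6% falls. Pfkfb3, which makes the activator of phosphofructokinase, fell 3.72-fold, whereas Ldhb, lactate dehydrogenase B, rose 2.15-fold and Pgk1, phosphoglycerate kinase, 1.85-fold. Slc16a1, a lactate transporter, fell 1.52-fold, a call lost without array 3, 5, 7 or 12 (adjusted p = 0.0543 to 0.084).

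Endothelial genes did not move as 1 block. Of 22 pan-endothelial genes 6 rose, 6 fell and 10 did not pass, where 31.8% of all genes rose and 39.6% fell. Their mean level was 9.64 to 10.20 on the 42 h arrays and 9.61 to 9.96 on the 2 h arrays. All 22 lay above the control level in both groups. Sox18, a transcription factor of endothelial development, read 9.83, 10.998, 11.88 and 11.59 at 42 h, against 8.07, 8.03, 8.29 and 7.86 at 2 h, an 8.08-fold rise (log2 SE 0.38, adjusted p = 0.000108). The 42 h arrays varied by 2 log2 units and none overlapped with 2 h, and the fresh mean of 11.10 ± 0.13 (SD, n = 5) was within 0.1 log2 units of the 42 h mean. Tek, the receptor of angiopoietins, read 11.57, 11.30, 11.66 and 11.51 at 42 h, against 10.71, 10.41, 10.57 and 10.16 at 2 h, a 2.06-fold rise (log2 SE 0.14, adjusted p = 0.000167), with 12.10 ± 0.08 in fresh cells (SD, n = 5). Cdh5, VE-cadherin of endothelial junctions, read 10.84, 11.14, 11.66 and 11.54 at 42 h, against 10.54, 10.25, 10.39 and 10.38 at 2 h, a 1.87-fold rise (log2 SE 0.18, adjusted p = 0.00166), with 11.68 ± 0.07 in fresh cells (SD, n = 5). Clec14a, a receptor of angiogenic endothelium, rose 3.49-fold. Flt1, VEGF receptor 1, fell 3.03-fold and Esam, an adhesion molecule of junctions, fell 2.29-fold. Nos3, endothelial nitric oxide synthase, did not pass, at 8.61 ± 0.42 at 42 h and 8.59 ± 0.44 at 2 h (SD, n = 4 each, difference 0.02). The fresh mean of Nos3, 10.59 ± 0.23 (SD, n = 5), was above those of both culture times.

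**Figure D4:**
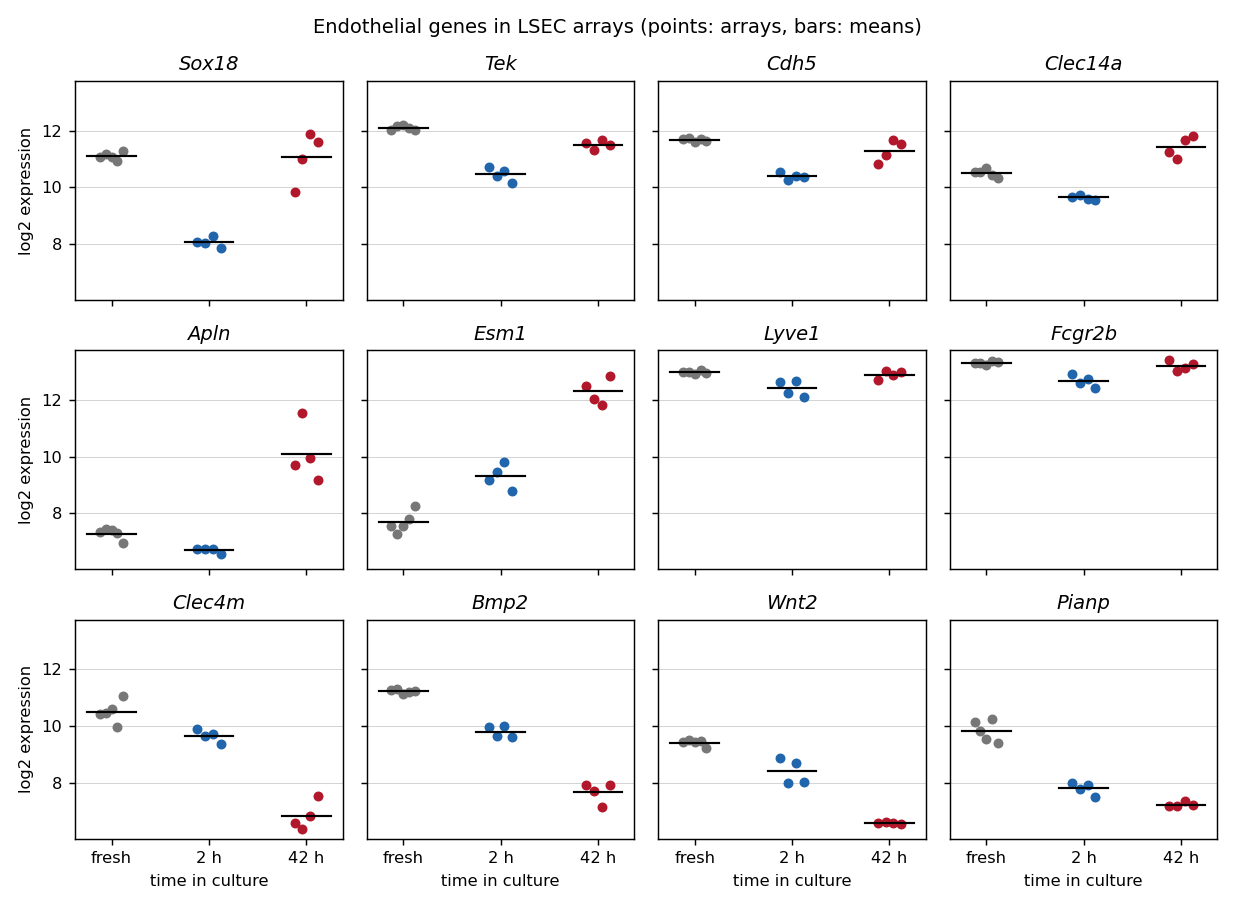
Log2 expression (vertical axis) of 12 endothelial genes in fresh LSEC (grey, n = 5), LSEC after 2 h (blue, n = 4) and LSEC after 42 h in culture (red, n = 4); points are arrays and bars are means. Sox18, Tek and Cdh5 are lowest at 2 h, Apln and Esm1 are highest at 42 h, and Clec4m, Bmp2 and Wnt2 are lowest at 42 h.

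Most LSEC transcription and secreted factors fell. Of 17 measured 14 fell, 8 of them at least 2-fold, and 2 rose, with a median difference of -0.81. Bmp2, the signal by which LSEC induce hepcidin in hepatocytes, read 7.92, 7.69, 7.15 and 7.92 at 42 h, against 9.95, 9.64, 10.01 and 9.60 at 2 h, a 4.38-fold fall (log2 SE 0.19, adjusted p = 1.24e-05). Wnt2, which acts on hepatocytes around the central vein, read 6.58, 6.61, 6.57 and 6.54 at 42 h, against 8.86, 7.99, 8.69 and 8.03 at 2 h, a 3.52-fold fall (log2 SE 0.19, adjusted p = 3.4e-05). The 42 h values of Wnt2 lay within 0.1 log2 units of each other and were below the median of all genes. Fresh means were 11.23 ± 0.07 for Bmp2 and 9.41 ± 0.11 for Wnt2 (SD, n = 5 each), so for both genes the 2 h mean lay between the fresh and the 42 h mean. Adamts1, a secreted metalloprotease, fell 8.01-fold, Abca8a, a lipid transporter, 7.11-fold and Tfec, a transcription factor of the MiT family, 5.17-fold. Cyp26a1, which degrades retinoic acid, fell at least 2.56-fold. Dnase1l3, a secreted nuclease, read 10.54, 10.98, 11.51 and 12.28 at 42 h, against 13.01, 12.60, 12.86 and 12.16 at 2 h, a 2.51-fold fall (log2 SE 0.34, adjusted p = 0.00639). One 42 h array reached the 2 h range for Dnase1l3.

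Some LSEC factors changed little between 2 h and 42 h. Pianp, known as liver endothelial differentiation-associated protein, read 7.16, 7.18, 7.34 and 7.20 at 42 h, against 7.995, 7.77, 7.92 and 7.49 at 2 h, a 1.49-fold fall (log2 SE 0.11, adjusted p = 0.00156), with a fresh mean of 9.83 ± 0.37 (SD, n = 5). Gata4, the transcription factor that directs sinusoidal identity, read 7.55, 7.51, 7.54 and 7.55 at 42 h, against 8.08, 7.81, 7.95 and 7.61 at 2 h, a 1.25-fold fall (log2 SE 0.10, adjusted p = 0.0181), with a fresh mean of 9.70 ± 0.31 (SD, n = 5). Maf, another factor of sinusoidal endothelium, read 6.80, 6.61, 7.01 and 7.21 at 42 h, against 7.42, 7.34, 7.06 and 7.38 at 2 h and overlapped between the groups (1.31-fold, adjusted p = 0.023, lost without array 1, 2, 4, 5 or 7 with adjusted p = 0.0521 to 0.0587). For these 3 genes the fresh mean lay more than 1.5 log2 units above the means of both culture times. The 2 factors that rose were Angpt2, an antagonist of Tek, and Pde2a, a phosphodiesterase. Angpt2 read 9.87, 10.86, 8.71 and 10.13 at 42 h, against 8.96, 8.63, 8.73 and 8.87 at 2 h and overlapped with 2 h in a single array (2.13-fold, adjusted p = 0.0231), a call lost after quantile normalization (adjusted p = 0.0645), with array weights (adjusted p = 0.0906) and without array 5 or 12 (adjusted p = 0.0538 and 0.054). Pde2a rose 1.54-fold.

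Receptors of scavenging and endocytosis went separate ways. Of 13 measured 2 rose and 6 fell (2 and 4 after quantile normalization), where 31.8% of all genes rose and 39.6% fell. Clec4m, a C-type lectin of sinusoidal endothelium, read 6.58, 6.36, 6.81 and 7.54 at 42 h, against 9.89, 9.66, 9.71 and 9.36 at 2 h, a 7.12-fold fall (log2 SE 0.23, adjusted p = 9.04e-06). Cd14, the lipopolysaccharide co-receptor, fell 2.97-fold and Dab2, an adaptor of clathrin-dependent uptake, fell 1.68-fold. Lyve1, the hyaluronan receptor, read 12.70, 13.02, 12.90 and 12.98 at 42 h, against 12.64, 12.25, 12.67 and 12.11 at 2 h, a 1.39-fold rise (log2 SE 0.14, adjusted p = 0.0136). Fcgr2b, which clears immune complexes, read 13.40, 13.03, 13.15 and 13.28 at 42 h, against 12.90, 12.60, 12.74 and 12.44 at 2 h, a 1.46-fold rise (log2 SE 0.12, adjusted p = 0.00332). Both receptors stayed near the top of the scale in every array, and fresh means were 12.98 ± 0.06 for Lyve1 and 13.31 ± 0.05 for Fcgr2b (SD, n = 5 each). The rise of Fcgr2b did not pass with all 18 arrays in the model (adjusted p = 0.173). Ehd3, an endocytic recycling protein, did not pass, at 9.04 ± 0.61 at 42 h and 8.95 ± 0.33 at 2 h (SD, n = 4 each, difference 0.09). Its fresh mean, 11.82 ± 0.43 (SD, n = 5), was above those of both culture times.

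The largest rise among the named genes was of a gene of sprouting endothelium. Apln, apelin, a peptide of endothelial tip cells, read 9.69, 11.55, 9.96 and 9.16 at 42 h, against 6.74, 6.73, 6.72 and 6.55 at 2 h, a 10.6-fold rise (log2 SE 0.42, adjusted p = 9.43e-05). Its 2 h values were below the median of all genes, its 42 h values varied by more than 2 log2 units, and its fresh mean was 7.28 ± 0.19 (SD, n = 5). Esm1, endocan, a secreted proteoglycan of tip cells, read 12.48, 12.05, 11.81 and 12.86 at 42 h, against 9.16, 9.44, 9.83 and 8.80 at 2 h, a 7.97-fold rise (log2 SE 0.27, adjusted p = 1.48e-05), with a fresh mean of 7.68 ± 0.37 (SD, n = 5). Cxcr4, the chemokine receptor of tip cells and leukocytes, read 8.33, 9.24, 10.28 and 11.83 at 42 h, against 7.67, 7.79, 7.87 and 7.28 at 2 h, a 4.82-fold rise (log2 SE 0.61, adjusted p = 0.00813). The 42 h values of Cxcr4 spread over more than 3 log2 units without reaching the 2 h range, and those of Esm1 kept closer together. Of 16 tip cell and sprouting genes 7 rose, 6 of them at least 2-fold, and 3 fell. Besides Flt1, the falls included Vegfc, a ligand of lymphatic growth, by 1.44-fold (adjusted p = 0.0343), which was lost without array 1, 2, 3, 4 or 6 (adjusted p = 0.0563 to 0.0914).

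Genes typical of continuous capillaries did not rise as a list, with 5 rises and 11 falls among 21 (5 and 6 after quantile normalization). Apln, described above with the tip cell genes, was also in this list and was its largest rise (10.6-fold). Vwf was in it too and fell 2.93-fold. Ace, angiotensin-converting enzyme, read 8.06, 8.48, 8.43 and 8.02 at 42 h, against 6.59, 6.64, 6.46 and 6.92 at 2 h, a 3.03-fold rise (log2 SE 0.14, adjusted p = 1.1e-05). Ly6c, a surface protein of lung and arterial capillaries in the mouse, fell 3.29-fold, and Gja4, the gap junction protein connexin 37, 2.33-fold. Plvap, the diaphragm protein of endothelial pores, did not pass, at 8.80 ± 0.38 at 42 h and 8.42 ± 0.17 at 2 h (SD, n = 4 each; difference 0.38), although it passed as a rise with array weights (adjusted p = 0.0271) and without array 12 (adjusted p = 0.0238). Caveolae, the membrane pits of continuous endothelium, showed 5 rises and 0 falls among 8 genes (3 and 1 after quantile normalization). Cav1, caveolin 1, read 7.53, 9.02, 8.23 and 7.20 at 42 h, against 6.90, 6.50, 7.04 and 6.62 at 2 h, a 2.35-fold rise (log2 SE 0.34, adjusted p = 0.00936). Cavin1, the coat protein of caveolae, read 10.47, 11.63, 11.60 and 11.39 at 42 h, against 9.77, 9.86, 9.82 and 9.76 at 2 h, a 2.77-fold rise (log2 SE 0.24, adjusted p = 0.000473). Neither gene overlapped between the groups, and array 2 was the highest at 42 h for both. Cav2, the partner of caveolin 1, and Cavin3 were higher by 1.5-fold and 1.61-fold, but neither passed after quantile normalization (adjusted p = 0.0748 and 0.11), and Cavin3 also did not pass without array 2, 3, 4, 5 or 7 (adjusted p = 0.0637 to 0.0917).

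Junctional genes gave 7 rises and 6 falls among 19 (5 and 4 after quantile normalization), where 31.8% of all genes rose and 39.6% fell. F11r, the junctional adhesion molecule JAM-A, read 11.09, 11.42, 12.03 and 12.03 at 42 h, against 9.82, 9.70, 9.68 and 9.60 at 2 h, a 3.84-fold rise (log2 SE 0.21, adjusted p = 4.35e-05). Jam2, which codes for JAM-B, fell 3.33-fold, so that members of the same family moved in opposite directions. Of 29 genes of the actin cytoskeleton 16 rose and 5 fell. Pfn1, profilin, which feeds actin monomers to growing filaments, read 10.22, 11.42, 11.06 and 10.25 at 42 h, against 8.70, 8.46, 9.31 and 8.26 at 2 h, a 4.15-fold rise (log2 SE 0.31, adjusted p = 0.000333). Vim, the intermediate filament protein vimentin, read 10.48, 12.34, 12.52 and 11.51 at 42 h, against 9.43, 9.31, 10.14 and 9.81 at 2 h, a 4.11-fold rise (log2 SE 0.41, adjusted p = 0.0017). Both were higher in every 42 h array than in any 2 h array, with array 1 the lowest of the 42 h arrays. Vasp, which extends filaments, and Arpc1b, a subunit of the branching Arp2/3 complex, rose 2.28-fold and 2.08-fold. Lmna, the nuclear lamin, fell 1.84-fold and Tpm2, a tropomyosin, 1.64-fold, the last of which did not pass with all 18 arrays in the model (adjusted p = 0.0822).

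Of 15 target genes of SRF and YAP, factors that respond to actin and to stretch, 2 rose and 6 fell. Among all genes 31.8% rose and 39.6% fell. Ccn2, connective tissue growth factor, read 12.85, 12.66, 12.23 and 12.64 at 42 h, against 8.74, 10.72, 9.62 and 10.84 at 2 h, a 6.12-fold rise (log2 SE 0.42, adjusted p = 0.000449). The 2 h arrays differed among themselves, with arrays 5 and 7 above arrays 4 and 6, and the fresh mean was 8.76 ± 0.66 (SD, n = 5). Ankrd1, a nuclear ankyrin repeat protein induced by stretch, rose 1.78-fold. Nuak2, a kinase, fell 3.03-fold. Ccn2 is shown because it was the largest rise in this list. Its window is chr1:22624565-22624864 on the - strand (RefSeq, GRCr8), and capitals mark the letters GGAATG on either strand, a motif of TEAD factors, the DNA-binding partners of YAP, with 3 matches that begin between -166 and -92.
Ccn2: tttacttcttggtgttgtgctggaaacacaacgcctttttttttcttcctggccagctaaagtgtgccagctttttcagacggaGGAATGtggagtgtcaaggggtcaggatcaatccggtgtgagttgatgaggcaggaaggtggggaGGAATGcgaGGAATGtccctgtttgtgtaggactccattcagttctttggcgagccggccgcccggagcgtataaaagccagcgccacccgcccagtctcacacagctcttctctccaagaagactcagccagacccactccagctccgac
These letters were in 5 of 9 windows of the list (55.6%), in 13.9% of all windows and in 11.8% of the windows of tested genes.

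Matrix genes gave 7 rises and 15 falls among 30 (5 and 11 after quantile normalization), where 31.8% of all genes rose and 39.6% fell, and the falls numbered 10 to 17 when single arrays were left out. The rises were of basement membrane and collagen processing genes. Lamc1, the gamma chain common to most laminins, read 9.80, 9.90, 9.84 and 9.66 at 42 h, against 8.74, 8.39, 8.59 and 8.65 at 2 h, a 2.31-fold rise (log2 SE 0.11, adjusted p = 1.78e-05). Serpinh1, the collagen chaperone Hsp47, rose 2.45-fold. The falls were led by Col3a1, a fibrillar collagen, which read 6.40, 6.12, 6.30 and 7.36 at 42 h, against 9.99, 8.59, 11.33 and 8.75 at 2 h, an 8.69-fold fall (log2 SE 0.56, adjusted p = 0.000892). Mgp, matrix Gla protein, fell 3.07-fold and Loxl2, a collagen crosslinker, 2.92-fold. Col3a1 and Mgp are also markers of stellate and mesenchymal cells, and both were highest in the same 2 h array, number 6. Of 18 such markers 15 fell and none rose (9 fell and 1 rose after quantile normalization), with a mean level of 6.31 to 6.66 on the 42 h arrays and 7.02 to 7.74 on the 2 h arrays, and 8 of 18 at control level at 42 h against 2 at 2 h. Lrat, which stores retinol in stellate cells, fell at least 3.57-fold and Ecm1 fell 3.61-fold. The part of such cells in the matrix values was not tested.

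Among proteases of the matrix and their inhibitors 2 rose and 8 fell of 16 (0 and 8 after quantile normalization). Timp3 and Timp1, inhibitors of metalloproteases, fell 5.49-fold and 4.32-fold. Timp1 read 9.05, 9.33, 9.26 and 9.25 at 42 h, against 11.37, 11.39, 11.16 and 11.41 at 2 h. Mmp14, a membrane metalloprotease, was higher by 1.62-fold (adjusted p = 0.0439), but overlapped between the groups and did not pass after quantile normalization (adjusted p = 0.157), after centring (adjusted p = 0.0561), with no trend (adjusted p = 0.0541) or without array 1, 3, 5, 7 or 12 (adjusted p = 0.0662 to 0.117). Adam17, the sheddase of Tnf, was higher by 1.35-fold and did not pass after quantile normalization (adjusted p = 0.0601). Of 14 integrins 8 fell and none rose (6 and 1 after quantile normalization). They included Itga1, a collagen receptor chain, which fell 2.06-fold, Itga9, which fell 2.05-fold, Itgb2, the integrin chain of leukocytes, which fell 2.17-fold, and Itgb6, which fell at least 1.69-fold.

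TGF-beta and BMP signalling genes showed 15 falls and 3 rises among 29. Besides Bmp2 the falls were led by Bambi, a decoy receptor, which read 7.21, 6.73, 6.79 and 6.89 at 42 h, against 8.89, 8.94, 8.70 and 8.82 at 2 h, a 3.82-fold fall (log2 SE 0.12, adjusted p = 1.8e-06). Id1, the classical target of BMP signals in endothelium, read 8.96, 8.19, 7.72 and 7.71 at 42 h, against 9.87, 9.94, 10.01 and 9.87 at 2 h, a 3.43-fold fall (log2 SE 0.25, adjusted p = 0.000209). Id2 fell at least 3.03-fold. The signal transducers Smad4 and Smad2 rose 1.7-fold and 1.66-fold.

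Cell cycle genes also moved in both directions. Of 24 genes of DNA replication and mitosis 10 rose and 3 fell, where 31.8% of all genes rose and 39.6% fell. The number of rises in the list was 7 to 13 when single arrays were left out. Mcm7, a subunit of the replicative helicase, read 10.25, 10.45, 9.95 and 9.58 at 42 h, against 7.98, 8.51, 8.27 and 8.42 at 2 h, a 3.39-fold rise (log2 SE 0.20, adjusted p = 5.12e-05). Prim1, the primase of lagging strand synthesis, rose 3.49-fold, Tyms, thymidylate synthase, 2.65-fold and Mcm6, another helicase subunit, 2.42-fold. Array 2 had the highest 42 h value of Mcm7, Prim1, Tyms and Mcm6. Pcna, the sliding clamp, fell 1.76-fold, and Ube2c, a ubiquitin ligase partner of mitotic exit, fell 1.97-fold with overlap in array 2. The E2F letters TTTNGCGC were in 9 of 20 windows of these genes (45.0%), in 1.37% of all windows and in 1.98% of the windows of tested genes. Of 13 cyclins and inhibitors of G1 only Cdk4 rose and 7 fell. Cdk4, the G1 kinase, read 10.06, 10.50, 10.17 and 9.78 at 42 h, against 7.84, 7.63, 8.03 and 7.53 at 2 h, a 5.17-fold rise (log2 SE 0.17, adjusted p = 4.29e-06). Cdkn1a, the p21 inhibitor, read 8.20, 7.75, 7.34 and 7.49 at 42 h, against 9.95, 9.94, 9.74 and 9.996 at 2 h, a 4.64-fold fall (log2 SE 0.18, adjusted p = 7.52e-06). Ccng1 and Mdm2, which like Cdkn1a are targets of p53, fell 3.38-fold and 2.17-fold.

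Lysosomal genes gave 8 rises and 2 falls among 26 (6 and 5 after quantile normalization), where 31.8% of all genes rose and 39.6% fell. Scarb2, a lysosomal membrane protein, read 9.56, 9.03, 9.56 and 9.9996 at 42 h, against 8.05, 7.32, 8.07 and 7.18 at 2 h, a 3.68-fold rise (log2 SE 0.26, adjusted p = 0.000182). Atp6ap1, an accessory subunit of the proton pump, rose 1.85-fold. Gla, an alpha-galactosidase, fell 2.54-fold and Ctsk, cathepsin K, 1.95-fold. Gpnmb, a glycoprotein of lysosomes and melanosomes, was among the 15 largest rises and read 9.76, 8.93, 9.25 and 9.12 at 42 h, against 6.62, 6.81, 6.69 and 7.02 at 2 h, a 5.59-fold rise (log2 SE 0.17, adjusted p = 3.71e-06).

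Hepatocyte transcripts were near background at 42 h. Of 24 markers 17 fell and none rose, with a mean level of 6.20 to 6.31 on the 42 h arrays, against 6.79, 7.47, 9.90 and 7.32 on the 2 h arrays 4, 5, 6 and 7. At 42 h 13 of the 24 were at control level and at 2 h none was, though the lower quartile of all genes was also higher at 2 h. Alb, albumin, read 6.52, 6.73, 6.39 and 6.32 at 42 h, against 8.62, 10.01, 13.04 and 10.19 at 2 h, a 15.7-fold fall (log2 SE 0.74, adjusted p = 0.00116). The fresh mean of Alb was 12.18 ± 0.50 (SD, n = 5). Array 6 held by far the most hepatocyte RNA of the 2 h arrays, with the groups still apart in every array. Ttr and Serpina1, carriers and inhibitors secreted by hepatocytes, fell 5.18-fold and 5.13-fold, and Fabp1, a fatty acid carrier of liver, fell at least 5.76-fold. Without array 6, 23 of the 24 markers fell. With any single 42 h array left out 9 fell, and after quantile normalization 10. Among macrophage genes Laptm5 fell 2.65-fold, Tyrobp 2.22-fold and Clec4f, a Kupffer cell receptor, 1.83-fold. Cd68 fell 1.86-fold, a call lost with all 18 arrays in the model (adjusted p = 0.0703).

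**Figure D5:**
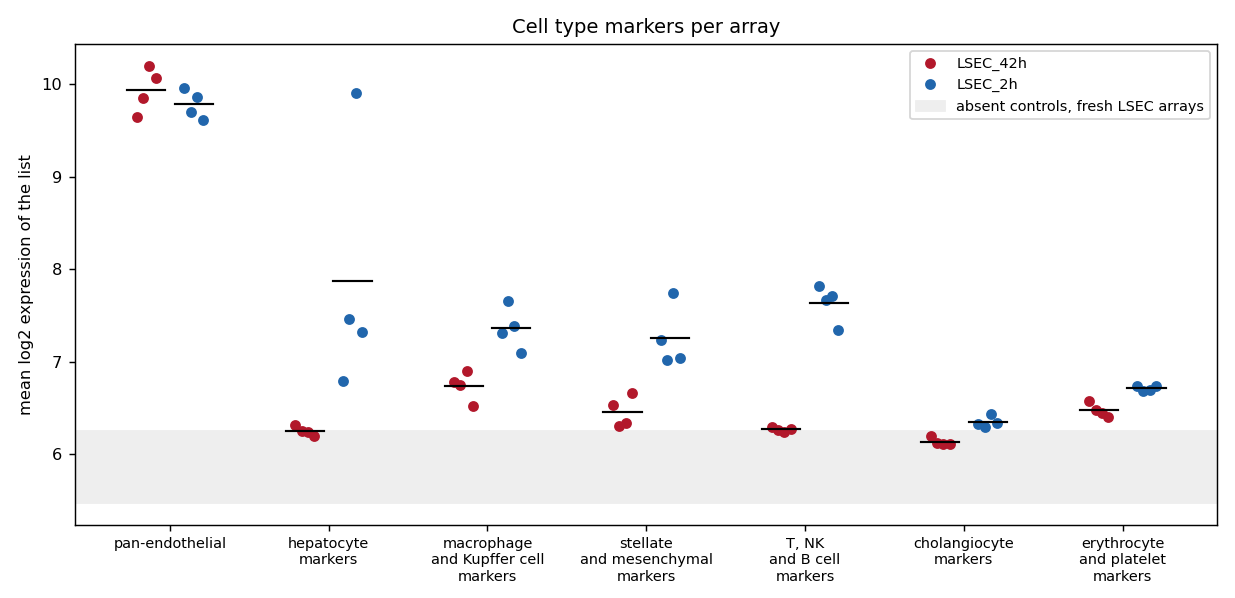
Mean log2 expression of cell type marker lists (vertical axis) in each LSEC_42h array (red, left) and each LSEC_2h array (blue, right); bars are group means and the grey band is the range of the absent control probe sets in fresh LSEC, 5.48 to 6.26. Pan-endothelial genes lie near 10 in both groups, hepatocyte and lymphocyte markers lie at the top of the band at 42 h, and 2 h array 6 stands out for hepatocyte markers.

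Neutrophil, cholangiocyte, erythrocyte and platelet markers gave little. Of 7 neutrophil markers 1 rose and 3 fell (1 and 1 after quantile normalization). Of 7 cholangiocyte markers 4 fell and none rose (1 and 1 after quantile normalization), and of 10 erythrocyte and platelet markers 8 fell and none rose (3 fell and 1 rose after quantile normalization). None of these falls reached 2-fold. The neutrophil marker that rose was Lcn2, lipocalin 2, an iron-binding protein that inflamed epithelium and endothelium also make. It read 12.05, 7.59, 11.04 and 8.44 at 42 h, against 6.51, 6.54, 6.63 and 6.51 at 2 h, a 9.41-fold rise (log2 SE 0.84, adjusted p = 0.00682). Its 42 h values spread over more than 4 log2 units, with arrays 1 and 3 high and arrays 2 and 12 lower, and all 4 stood above the 2 h values.

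Several large rises belonged to no list. Gpx8, a peroxidase of the endoplasmic reticulum, read 10.44, 10.50, 10.11 and 10.49 at 42 h, against 7.53, 7.21, 7.69 and 7.08 at 2 h, an 8.06-fold rise (log2 SE 0.16, adjusted p = 9.4e-07). Ugp2, which makes UDP-glucose for glycogen and glycoproteins, read 12.49, 12.22, 12.43 and 12.35 at 42 h, against 8.87, 9.93, 9.16 and 10.10 at 2 h, a 7.26-fold rise (log2 SE 0.26, adjusted p = 1.47e-05). St3gal2, a sialyltransferase, read 9.61, 9.55, 9.65 and 9.76 at 42 h, against 6.97, 6.96, 7.10 and 6.61 at 2 h, a 6.65-fold rise (log2 SE 0.12, adjusted p = 3.23e-07). The 42 h values of these 3 genes stayed within 0.4 log2 units of each other, and none overlapped with 2 h. C1qbp, a mitochondrial matrix protein needed for mitochondrial translation, read 11.64, 11.90, 11.21 and 10.73 at 42 h, against 8.79, 9.33, 8.96 and 8.78 at 2 h and rose 5.29-fold. Nipsnap3b rose 5.11-fold and Tstd3, a protein with a rhodanese domain, rose at least 5.81-fold.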

How the data were processed

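The authors deposited log2 expression values per probe set, made from total RNA (RNeasy) and biotinylated cRNA per the labels' protocols. How they corrected background, normalized and summarised the probes is not given in the sources used here, and the log2 unit was read from the values. Of 11484 probe sets 57 were controls. The 11018 of 11427 gene probe sets that had 1 symbol in the platform annotation were tested, and 409 without a symbol were left out. Arrays have no counts, so their number limits the precision.

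Groups came from the sample titles. The 8 arrays were fitted with limma 3.58.1 (R 4.3.3) with an intensity trend, and p-values of the two-sided test were adjusted by Benjamini-Hochberg over 11018 genes. Folds were taken from the fit. The procedure was also run on simulated arrays in which few genes were changed and both groups had the same spread. Those settings differ from these data, where most genes were called, so the simulation does not bear on the calls. Other steps ran in Python 3.11.15 with pandas 2.3.3 and scipy 1.17.1. RNA quality was tested by exact permutation over arrays.

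The comparison, the 39 gene lists and the motifs were chosen with earlier results of these data known. Named genes are the 15 that rose most and the 15 that fell most (called, without overlap of the arrays, and with at least one group mean over 7.16), up to 4 called members of each list, up to 2 opposing members, and a fixed set of endothelial genes. That rule chose 189 genes, of which 178 are named. The other 11, markers of blood cells and cholangiocytes, are in the counts only. Promoter windows come from RefSeq (GRCr8), and 9060 tested genes had one.

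Alternatives were quantile normalization, centring of each array, a filter on dim genes, all 18 arrays in the model, no trend, array weights, all gene rows, a test against a 1.5-fold change, and leaving out each array.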

Additional observations from a re-analysis of the deposited data

Results flagged for a closer look

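In each group of 4 arrays the highest or lowest value was set apart when its gap to the nearest other array was too large a share of the group's range for Dixon's test at the 95% level. Chance alone sets apart about 1 in 20 groups, which is 22 of the 440 groups examined, and 17 were found. They are given as values. At 42 h, array 3 was lowest for Gpx8 at 10.11 and highest for Gja4 at 7.46, array 12 was lowest for RT1-Ba at 6.23, and array 2 was lowest for Hmox1 at 8.57. Among the 2 h arrays, array 7 was set apart in 5 genes. It was lowest for Apln at 6.55, for Ly6c at 8.10, for Laptm5 at 8.34 and for Tyrobp at 8.36, and highest for Gbp2 at 11.38. Array 4 was highest for Vcam1 at 12.29 and lowest for F3 at 7.20. Array 6 was highest for Mcm6 at 7.29 and lowest for Timp1 at 11.16. Array 5 was lowest for Itgb6 at 6.48. For the list means, 2 h array 5 was highest for NF-kB feedback and effectors at 9.86, with the other arrays at 9.84. The 2 h array 6 was highest for cholesterol synthesis and uptake at 7.65 and lowest for integrins at 7.45.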

How the results depend on the processing

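No paired analysis was possible because the labels do not name the animal or cell preparation of an array. The numbers in the titles never repeat within the series, so they do not show whether arrays are paired. Of the 178 genes named by the rule, none that passed in the main fit or in an alternative changed direction between them. Nos3 and Ehd3, which passed in neither, changed sign after quantile normalization, with differences of -0.21 and -0.10. Leaving out 1 array gave 1424 values for the 178 named genes, of which 33 were no longer past the threshold and 1 newly passed, in 9 genes, and these are given beside the genes. Leaving out 1 array at a time, the genes called numbered 7175 to 7964, with 3258 to 3422 rises and 3917 to 4614 falls, of which 882 to 1020 rises and 579 to 642 falls were at least 2-fold. Quantile normalization left 2809 falls beside 3201 rises, and 21 of 78 list counts moved by more than 1.5 times. The filter on dim genes, which tests 5945 genes, left 4362 calls and 1461 falls. That filter with quantile normalization, chosen after seeing the data, left 4134 calls, 2318 rises and 1816 falls. The test against a 1.5-fold change, which asks for more, left 1605 calls, 1020 rises and 585 falls. Under it 50 of the 178 named genes lost their call, and these losses are not given beside the genes. Among them were Asns, Cxcr4, Dnase1l3 and Cdh5 (adjusted p = 0.0606, 0.0713, 0.156 and 0.27). Centring, all 18 arrays, no trend, array weights and all gene rows gave between 7603 and 8439 calls. Leaving out 1 array, the Actb 3′ to 5′ difference was 0.1809 to 0.2084, with exact permutation p = 0.0571, the smallest that 3 against 4 allows. With Gapdh in place of Actb it was 0.0023. The cause of the shift between rises and falls under quantile normalization was not tested. Signal near background limits the falls: folds with a mean between 5.48 and 6.26 are minimums.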
